A study of Homo sapiens with 6 samples.

Results

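Stathmins and tubulins are the small regulators and the building blocks of microtubules. The genes described here are 10 of the 58735 in the deposited tables: STMN1, STMN2, STMN3, STMN4, TUBA1A, TUBB, TUBB2A, TUBB2B, TUBB3 and TUBB6. They were found by matching Ensembl identifiers to gene symbols. STMN3 was selected on its measured FPKM in these libraries, which were lower in the TIPE2 cells, and the rest entered as its relatives and its binding partners. The contrast of STMN3 between the groups is therefore a description of how it was chosen and carries no test.

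The data are RNA sequencing of SKOV3, a long-established line of human ovarian cancer cells. The 3 TIPE2 libraries came from SKOV3 cells given a lentivirus that carries human TIPE2 cDNA and kept under puromycin for stable overexpression. The 3 Vector libraries came from SKOV3 cells given the empty vector, with no statement in the labels of a separate selection for them. TIPE2 is the protein of TNFAIP8L2, a member of the TNFAIP8 family known as a brake on inflammatory signalling. The labels call the libraries biological replicates numbered 1 to 3 and name no separate transductions or clones, so the p-values reflect the spread among these libraries, which may be technical.

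Each library had 15983317 to 18583473 fragments in genes. Its deposited values are FPKM, in which the fragments of a gene are divided by its length and by a depth rescaled between libraries. TNFAIP8L2 had 58.4, 47.2 and 48.8 FPKM in TIPE2 1, 2 and 3 and 0, 0.0476 and 0 FPKM in Vector 1, 2 and 3. Of 8 markers of epithelial carcinoma, 7 had a mean of at least 1 FPKM, with a summed level of 1187 to 1439 FPKM in TIPE2 and 1366 to 1500 FPKM in Vector libraries. The exception was CDH1, the epithelial cadherin. Of 13 neuronal markers, which share a tissue with several stathmins and tubulins, only GAD1 reached a mean of 1 FPKM, and ELAVL4, NEFM and DCX were at 0 in all 6 libraries. The neuronal sum was 2.62 to 3.09 FPKM in TIPE2 and 2.16 to 3.06 FPKM in Vector libraries.

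Microtubules are polymers of dimers of alpha and beta tubulin. Stathmins bind free tubulin dimers and favour disassembly, and phosphorylation of a stathmin weakens this binding. STMN1 is the cytosolic stathmin of dividing cells and of many carcinomas. STMN2, STMN3 and STMN4 are best known from neurons, where a fatty acid attached near the start of the protein anchors them to membranes. Each tubulin isotype is made from its own gene, and beta isotypes differ most in the acidic tail at the end of the protein, which faces outward from the microtubule.

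The ends of the coding sequences show how near these beta tubulins are to each other. They are given because the acidic tail distinguishes the isotypes, and because near-identical stretches decide how well sequenced fragments can be assigned. Each line holds the last 63 coding bases with the stop codon, from the principal GENCODE 29 transcript on GRCh38, and capitals mark bases that differ from TUBB in the alignment of the coding sequences.
TUBB (chr6:30724335-30724397, plus strand): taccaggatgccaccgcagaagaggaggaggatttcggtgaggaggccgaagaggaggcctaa
TUBB2A (chr6:3153863-3153925, minus strand): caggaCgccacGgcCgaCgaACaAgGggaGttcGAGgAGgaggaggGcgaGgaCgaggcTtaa
TUBB2B (chr6:3224751-3224813, minus strand): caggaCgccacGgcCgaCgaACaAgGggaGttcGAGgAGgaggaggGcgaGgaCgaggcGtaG
TUBB6 (chr18:12326068-12326130, plus strand): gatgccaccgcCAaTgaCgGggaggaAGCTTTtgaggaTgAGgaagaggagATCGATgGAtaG
TUBB3 (chr16:89935742-89935804, plus strand): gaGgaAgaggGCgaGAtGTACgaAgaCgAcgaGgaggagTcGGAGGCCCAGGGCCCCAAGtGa

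TUBB2A and TUBB2B hold 18 and 19 capitals in these tails, TUBB6 holds 23 and TUBB3 holds 35. Over the whole coding sequence TUBB2A and TUBB2B differed at 25 of 1338 aligned bases, an identity of 98.1%. The identity of TUBB was 84.7% with TUBB2A and with TUBB2B, 81.6% with TUBB3 and 80.9% with TUBB6. STMN1 and STMN3 were 53.0% identical. Of the 75-base windows of the principal transcript of TUBB2A, 56.8% occur unchanged in TUBB2B, and 44.4% of those of TUBB2B occur in TUBB2A. How the authors assigned such fragments is not given in the sources used here, so the levels of TUBB2A and TUBB2B are uncertain with respect to each other. The principal transcripts of TUBB6 and the 4 stathmins had no 75-base window in common with another annotated gene.

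The starts of the tubulin coding sequences carry a second feature. Excess free tubulin leads cells to degrade tubulin messages while they are translated, and the factor TTC5 reads the first amino acids of the nascent protein in this autoregulation. The first 12 coding bases are given here with codons 2 to 4 in capitals, those of TUBA1A being split over an intron.
TUBA1A (chromosome 12, minus strand): atgCGTGAGTGC
TUBB (chromosome 6, plus strand): atgAGGGAAATC
TUBB2A (chromosome 6, minus strand): atgCGCGAGATC
TUBB2B (chromosome 6, minus strand): atgCGTGAGATC
TUBB3 (chromosome 16, plus strand): atgAGGGAGATC
TUBB6 (chromosome 18, plus strand): atgAGGGAGATC

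Over these bases TUBB3 and TUBB6 are identical, and the other beta tubulins differ from them within the capitals only. The 5 beta tubulins all end this stretch in ATC, and TUBA1A ends it in TGC.

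Of the 10 genes, 7 averaged at least 1 FPKM across all libraries and entered the fit across 12538 genes. STMN2, STMN4 and TUBB3 were below that level. Apart from STMN3, 6 genes were tested: STMN1, TUBA1A, TUBB, TUBB2A, TUBB2B and TUBB6. None of these 6 passed in limma at a Benjamini-Hochberg adjusted p under 0.05, where 0.0239% of all tested genes passed (0.016% higher and 0.00798% lower in TIPE2), and 0 of the 6 had an unadjusted p under 0.05, where 5.99% of all tested genes did. The groups overlapped for all 6, where 11.5% of all tested genes had groups that did not overlap. The calls over all genes, 2 higher and 1 lower, moved with the libraries used: there were 8 higher and 3 lower without TIPE2 3, and 1 higher and 0 lower without TIPE2 1, TIPE2 2, Vector 2 or Vector 3. Without any 1 library none of the 6 genes passed.

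**Figure D1:**
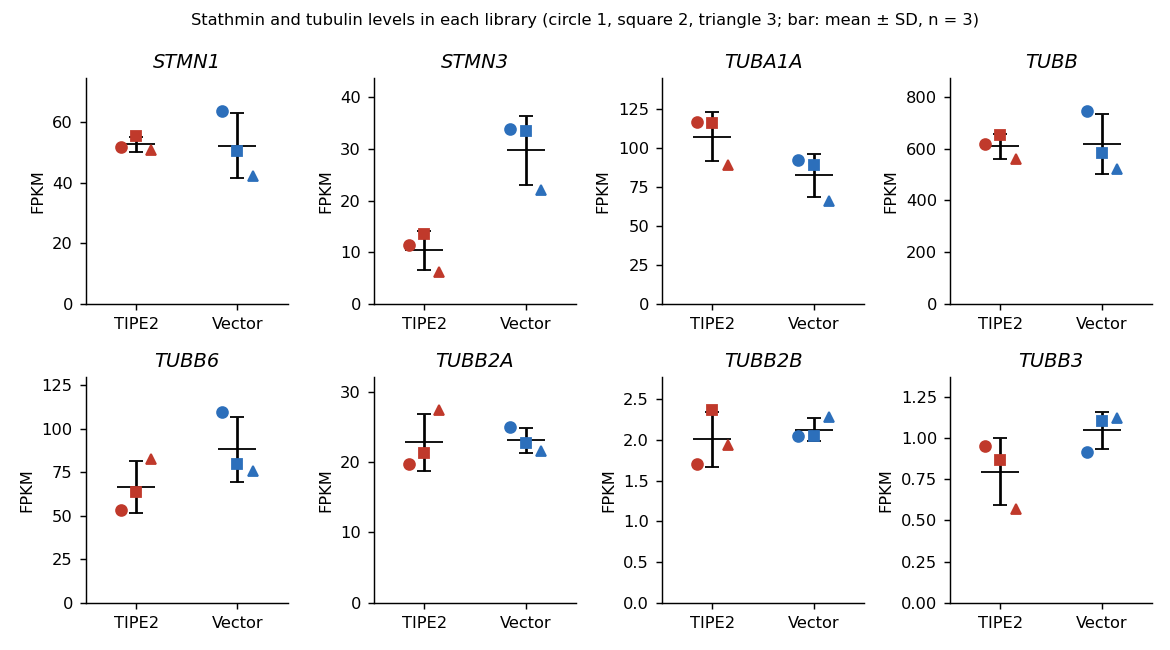
Level in FPKM (vertical axis, from 0) of the 8 stathmin and tubulin genes that were detected at more than trace level, in the TIPE2 and Vector libraries, with replicates 1, 2 and 3 as circle, square and triangle and the mean with its SD as black bars. STMN3 is the gene whose groups stand apart, at 6.09 to 13.6 FPKM in TIPE2 and 22.0 to 33.8 FPKM in Vector libraries, and it was chosen for this; the groups of the other 7 overlap.

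STMN3 (ENSG00000197457; GRCh38 chromosome 20, 63639705 to 63657682, minus strand) encodes the stathmin also called SCLIP. It had 11.4, 13.6 and 6.09 FPKM in TIPE2 1, 2 and 3, from 662, 719 and 308 fragments. In Vector 1, 2 and 3 it had 33.8, 33.4 and 22.0 FPKM, from 1618, 1806 and 1089 fragments. Replicate 3 was the lowest library in both groups, and the highest TIPE2 library lay below the lowest Vector library. In bulk samples such as these, fewer cells that express a gene and less of its RNA in each cell cannot be told apart. The means were 10.3 ± 3.84 and 29.7 ± 6.71 FPKM (SD, n = 3), so the Vector mean was 2.87 times the TIPE2 mean.

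On the log2(FPKM + 1) scale the difference of STMN3, TIPE2 minus Vector, was -1.48, the 9th lowest of 12538 genes. The rank comes from the values on which the gene was chosen. Groups that do not overlap, with TIPE2 lower, were found for 5.31% of all tested genes, and nothing is read from STMN3 being among them. The size of the difference followed single libraries, at -1.17 without TIPE2 3 and -1.69 without TIPE2 2. With the FPKM of each library scaled to the same sum it was -1.45, and with quantile normalization it was -1.42. No exon base of STMN3 is shared with another annotated gene, so its fragments are not divided with a neighbour.

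The annotated genes on either side of STMN3 had mean deposited levels of 0.612 FPKM (RTEL1) and 8.19 FPKM (MHENCR). Exon bases that they share with other genes are not given here, and such overlap can make a deposited level too low. RTEL1, a DNA helicase gene that starts 127 bases beyond the upstream end of STMN3 on the other strand, had 0.695, 0.684 and 0.521 FPKM in TIPE2 and 0.452, 0.662 and 0.656 FPKM in Vector libraries, too low for the test. MHENCR, an antisense RNA gene 10880 bases beyond the other end, had 6.17, 9.50 and 8.31 FPKM in TIPE2 and 7.90, 9.17 and 8.10 FPKM in Vector libraries. The MHENCR difference was -0.08 on the log2(FPKM + 1) scale, with a 95% interval of -0.43 to 0.28 and a Benjamini-Hochberg adjusted p of 0.912 in limma. Both neighbours had groups that overlap.

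The promoter window of STMN3 is shown because this gene is the one whose RNA level set the choice. It is RefSeq's sequence on GRCh38.p14, read 5′ to 3′ on the minus strand, 250 bases before to 50 bases after the RefSeq start, and it lies inside the GENCODE 29 span, which also holds transcripts that start further upstream. Capitals mark the GC box GGGCGG, searched on both strands.
STMN3 promoter (chr20:63652717-63653016, minus strand): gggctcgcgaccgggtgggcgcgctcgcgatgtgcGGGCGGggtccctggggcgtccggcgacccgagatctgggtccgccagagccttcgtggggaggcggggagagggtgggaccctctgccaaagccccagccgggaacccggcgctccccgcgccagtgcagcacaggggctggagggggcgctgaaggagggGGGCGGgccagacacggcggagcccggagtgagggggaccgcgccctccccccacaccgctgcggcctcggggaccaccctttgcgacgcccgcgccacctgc

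The window was 77.7% G and C, where the median over 35116 promoter windows of the same length was 58.7%. The GC box had 2 matches, and 45.0% of all windows hold at least 1. The NF-kappaB pattern was searched loosely as 3 G, any 5 bases and 2 C on both strands with overlapping matches counted. It had 7 matches, and 58.7% of windows hold at least 1. Its fixed letters are all G or C, and matches in windows of like G and C content were not counted. Neither the E-box CACGTG nor the TATA box TATAAA was found in it, and 7.26% and 11.5% of windows hold these. Such matches are letters in a window and were not measured as bound sites.

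STMN1 (ENSG00000117632; chromosome 1, 25884181 to 25906991, minus strand) was the main stathmin of both groups. It had 51.7, 55.5 and 50.9 FPKM in TIPE2 1, 2 and 3 and 63.6, 50.5 and 42.3 FPKM in Vector 1, 2 and 3, from 4331 to 6290 fragments. The Vector libraries spanned the whole range of values and enclosed all 3 TIPE2 libraries. The means were 52.7 ± 2.44 and 52.1 ± 10.7 FPKM (SD, n = 3). The difference was 0.03 on the log2(FPKM + 1) scale, with a standard error of 0.16, a 95% interval of -0.35 to 0.41 and a Benjamini-Hochberg adjusted p of 0.964 in limma. The interval is wide beside the difference and includes differences in either direction. Vector 1, which had the largest sum of FPKM of all libraries (321815), was the highest for STMN1, and Vector 3 was the lowest. With sums made equal the Vector values were 56.7, 52.8 and 44.3, and the TIPE2 values were 54.2, 55.8 and 49.9.

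STMN2 (ENSG00000104435; chromosome 8, 79610814 to 79666175, plus strand) and STMN4 (ENSG00000015592; chromosome 8, 27235323 to 27258420, minus strand) were at the limit of detection. STMN2, a stathmin of growing axons, had 2 fragments in all, 1 in TIPE2 2 and 1 in Vector 2. STMN4 had 1 fragment, in TIPE2 1. A count of 0 allows up to 3 fragments, which is 0.0661 to 0.0804 FPKM for STMN2 and 0.0474 to 0.0576 FPKM for STMN4 in these libraries. A difference between the groups was not detectable at this depth for either gene.

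The stathmin pool was thus made of STMN1 and STMN3. STMN3 made up 18.0, 19.6 and 10.7% of the summed stathmin FPKM in TIPE2 1, 2 and 3 and 34.7, 39.8 and 34.2% in the Vector libraries in the same order. STMN1 held nearly all of the rest, with 83.9 ± 4.79% in TIPE2 and 63.8 ± 3.13% in Vector libraries (SD, n = 3). Since the shares add up to the whole and STMN3 was chosen for its level, the larger share of STMN1 in TIPE2 libraries is the same observation seen from the other side. The summed stathmin level was 63.1, 69.0 and 57.0 FPKM in TIPE2 and 97.4, 84.0 and 64.3 FPKM in Vector libraries. These levels and shares are per merged exon length, which weighs against STMN1: its merged exons span 6261 bases and its principal transcript 1712.

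**Figure D2:**
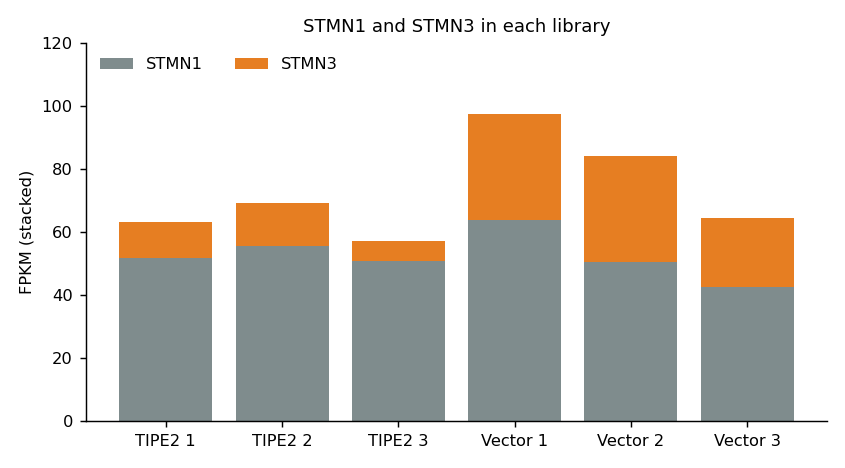
Stacked bars of the FPKM of STMN1 and STMN3 (vertical axis, from 0) in each of the 6 libraries. The STMN1 segment ranges from 42.3 to 63.6 FPKM in both groups together, and the STMN3 segment, for which the gene was chosen, is 6.09 to 13.6 FPKM in TIPE2 and 22.0 to 33.8 FPKM in Vector libraries.

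TUBB (ENSG00000196230; chromosome 6, 30720201 to 30725426, plus strand), the beta tubulin most cells express, had the highest level of the 10 genes. It had 616, 653 and 558 FPKM in TIPE2 1, 2 and 3 and 745, 583 and 521 FPKM in Vector 1, 2 and 3. Vector 1 was the highest and Vector 3 the lowest library, as for STMN1, so the Vector group again enclosed the TIPE2 group. The means were 609 ± 47.7 and 617 ± 115 FPKM (SD, n = 3). The difference was -0.0047 on the log2(FPKM + 1) scale, with a standard error of 0.19, a 95% interval of -0.44 to 0.43 and a Benjamini-Hochberg adjusted p of 0.995 in limma. Its sign has no weight, since it was 0.02 with equal sums and 0.08 with quantile normalization. In its exons, 538 bases, 16.0% of the total, lie opposite the antisense gene AL662797.1.

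TUBA1A (ENSG00000167552; chromosome 12, 49184796 to 49189324, minus strand) is an alpha tubulin known for its high level in developing neurons. It had 117, 116 and 89.5 FPKM in TIPE2 1, 2 and 3 and 92.2, 88.9 and 66.4 FPKM in Vector 1, 2 and 3. TIPE2 1 and 2 lay above every Vector library, but TIPE2 3 lay between Vector 1 and Vector 2. The means were 107 ± 15.6 and 82.5 ± 14.1 FPKM (SD, n = 3), a ratio of 1.30. The difference was 0.38 on the log2(FPKM + 1) scale, with a standard error of 0.18, a 95% interval of -0.04 to 0.80 and a Benjamini-Hochberg adjusted p of 0.834 in limma. It stayed positive without any 1 library, between 0.23 and 0.51, and its lowest adjusted p in limma over all alternatives was 0.331. For this gene, too, replicate 3 was the lowest library in each group, as it was for STMN3. TUBA1A shares 490 exon bases, 14.3% of the total, with TUBA1C on the opposite strand. Of the 75-base windows of its principal transcript, 23.0% occur in TUBA1C.

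TUBB6 (ENSG00000176014; chromosome 18, 12307669 to 12344320, plus strand), a divergent beta tubulin found in many non-neuronal tissues, pointed the other way. It had 53.6, 63.8 and 82.5 FPKM in TIPE2 1, 2 and 3 and 109.8, 79.8 and 75.6 FPKM in Vector 1, 2 and 3. TIPE2 1 and 2 lay below every Vector library, but TIPE2 3 lay above Vector 2 and 3. The means were 66.6 ± 14.7 and 88.4 ± 18.7 FPKM (SD, n = 3). The difference was -0.41 on the log2(FPKM + 1) scale, with a standard error of 0.21, a 95% interval of -0.89 to 0.08 and a Benjamini-Hochberg adjusted p of 0.834 in limma. It stayed negative without any 1 library, between -0.57 and -0.24, and its lowest adjusted p in limma over all alternatives was 0.322. TUBB6 shares 837 exon bases, 20.3% of the total, with AFG3L2 on the opposite strand.

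TUBB2A (ENSG00000137267; chromosome 6, 3153669 to 3157526, minus strand) and TUBB2B (ENSG00000137285; chromosome 6, 3224261 to 3231730, minus strand) are neighbouring copies on one chromosome, known for their roles in neurons. TUBB2A had 19.7, 21.2 and 27.4 FPKM in TIPE2 1, 2 and 3 and 25.0, 22.7 and 21.5 FPKM in Vector 1, 2 and 3. TUBB2B had 1.71, 2.37 and 1.94 FPKM in TIPE2 and 2.05, 2.05 and 2.29 FPKM in Vector libraries, from 71 to 91 fragments. For both genes the TIPE2 libraries spanned a wider range than the Vector libraries and enclosed them.

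The TUBB2A means were 22.8 ± 4.08 and 23.1 ± 1.75 FPKM, and the TUBB2B means were 2.01 ± 0.337 and 2.13 ± 0.139 FPKM (SD, n = 3). The difference of TUBB2A was -0.03 on the log2(FPKM + 1) scale, with a 95% interval of -0.36 to 0.31 and a Benjamini-Hochberg adjusted p of 0.965 in limma, and it was 0.03 with quantile normalization. TUBB2B differed by -0.06, with a 95% interval of -0.35 to 0.22 and a Benjamini-Hochberg adjusted p of 0.913 in limma. Their 98.1% identity bears on both values, since fragments of one can be assigned to the other.

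TUBB3 (ENSG00000258947; chromosome 16, 89921392 to 89938761, plus strand) is the beta tubulin used as a marker of neurons and studied in ovarian carcinoma for its link to taxane response. It had 0.952, 0.865 and 0.568 FPKM in TIPE2 1, 2 and 3 and 0.914, 1.10 and 1.12 FPKM in Vector 1, 2 and 3, from 42 to 87 fragments. TIPE2 1 lay above Vector 1, so the groups overlapped. The mean over all libraries, 0.920 FPKM, kept it out of the test, and its difference of -0.19 on the log2(FPKM + 1) scale is a description. Of its exon bases, 1584, or 35.8%, are shared with the overlapping gene AC092143.1 on the same strand, and 89.2% of the 75-base windows of its principal transcript occur there. Per kilobase of exon that no other gene shares, with all of its fragments kept, its mean level was 1.43. This is too high if fragments in shared bases were counted.

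**Figure D3:**
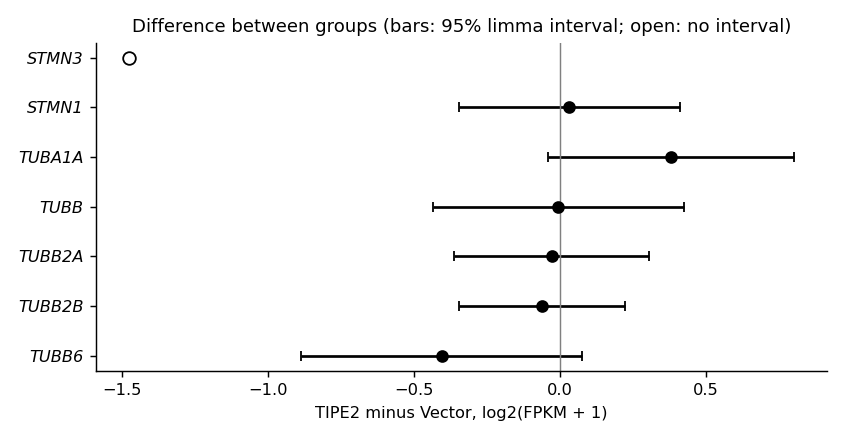
Difference between the groups on the log2(FPKM + 1) scale (horizontal axis, TIPE2 minus Vector) for the 7 stathmin and tubulin genes that entered the fit, with 95% limma intervals over 3 libraries a group. STMN3, at -1.48, was chosen for its level and is drawn open with no interval; the intervals of the other 6 all include 0, from 0.38 for TUBA1A to -0.41 for TUBB6.

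Where exons of different genes overlap, the deposited levels can be too low. Of 710 genes with every exon base opposite exons of other genes and none shared on their own strand, 708 had 0 fragments in all 6 libraries, 99.7%, and so did 71 of 71 whose partner had at least 20 FPKM. Of genes of any type with no shared exon base, 55.6% were at 0, and of the protein-coding ones 19.5%. Of 282 protein-coding genes with every exon base shared on their own strand, 221 were at 0, 78.4%. Genes that lie wholly opposite another gene thus almost never received fragments, and the length used for FPKM includes shared bases. Whether genes with partly shared exons lost the fragments there was not tested. Among the 10 genes, exon bases are shared in TUBA1A, TUBB, TUBB2B, TUBB3, TUBB6 and, through 66 bases, STMN1. The shared bases of a gene are the same in every library.

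Ordered by mean FPKM over the 6 libraries, the level fell from TUBB through TUBA1A, TUBB6, STMN1, TUBB2A, STMN3, TUBB2B and TUBB3 to STMN2 and STMN4. The ranges overlapped between TUBA1A and TUBB6, where 4 of 6 libraries had the order of the means, and between TUBB2A and STMN3, where 3 of 6 did. TUBB6 and STMN1 also had overlapping ranges, though TUBB6 was the higher in 6 of 6 libraries, and STMN2 was not distinguishable from STMN4. All other neighbours in the order had ranges that do not overlap. The place of TUBB3 rests on a level that may be too low, given its overlap with AC092143.1.

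The order depends on the length by which fragments are divided. Per kilobase of the principal transcript, the mean level was 771 for TUBB, 192 for STMN1, 169.7 for TUBA1A, 155 for TUBB6, 26.9 for STMN3, 24.8 for TUBB2A, 2.30 for TUBB3 and 2.25 for TUBB2B, so STMN1 moved from rank 4 to rank 2. Per kilobase of exon that no other gene shares, the order was that of the FPKM values, with 729.5 for TUBB, 111 for TUBA1A and 97.3 for TUBB6. Comparisons of 1 gene between groups use the same length in every library.

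Within the beta tubulins, the sum of 9 genes was 1129, 1203 and 1102 FPKM in TIPE2 1, 2 and 3 and 1460, 1122 and 1005 FPKM in Vector 1, 2 and 3. TUBB made up 54.5, 54.3 and 50.6% of it in TIPE2 and 51.0, 52.0 and 51.9% in Vector libraries. TUBB4B, a broadly expressed isotype, made up 37.7 to 39.2% over all 6 libraries. TUBB and TUBB4B together were therefore most of the beta tubulin RNA in every library.

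TUBB6 made up 4.75, 5.30 and 7.49% of the beta tubulin FPKM in TIPE2 1, 2 and 3 and 7.52, 7.12 and 7.52% in the Vector libraries in the same order. Its share was lower than in any Vector library in TIPE2 1 and 2 and not in TIPE2 3, with means of 5.84 ± 1.45% and 7.39 ± 0.234% (SD, n = 3). TUBB2A made up 1.71 to 2.48%, TUBB2B 0.140 to 0.228% and TUBB3 0.0516 to 0.111%. The TUBB3 share may be too low, since 89.2% of the 75-base windows of its principal transcript occur in AC092143.1, whose level is not given here. Adding the 32 rows of beta tubulin pseudogenes, 0.450 to 0.697% of the beta tubulin FPKM, moved the TUBB6 means to 5.81 and 7.35%. Shares of fragments, with no division by gene length, differed more: the TIPE2 and Vector means were 61.7 and 59.7% for TUBB, 8.32 and 10.5% for TUBB6, 1.19 and 1.16% for TUBB2A, 0.133 and 0.138% for TUBB2B and 0.106 and 0.138% for TUBB3.

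Within the alpha tubulins, TUBA1A made up 22.6, 21.2 and 16.7% of the sum of 9 genes in TIPE2 1, 2 and 3 and 14.7, 17.0 and 13.8% in the Vector libraries in the same order. The means were 20.2 ± 3.12% and 15.2 ± 1.69% (SD, n = 3), and TIPE2 3 lay below Vector 2, so the groups overlapped. TUBA1B was the largest alpha tubulin at 46.9 to 54.7%. TUBA1C, the partner of TUBA1A in the overlap, made up 25.4, 24.6 and 26.1% in TIPE2 and 30.3, 28.0 and 26.2% in Vector libraries. The mean share of TUBA1A was higher and that of TUBA1C lower in TIPE2 libraries, and the TUBA1C shares nearly met, TIPE2 3 lying just below Vector 3.

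**Figure D4:**
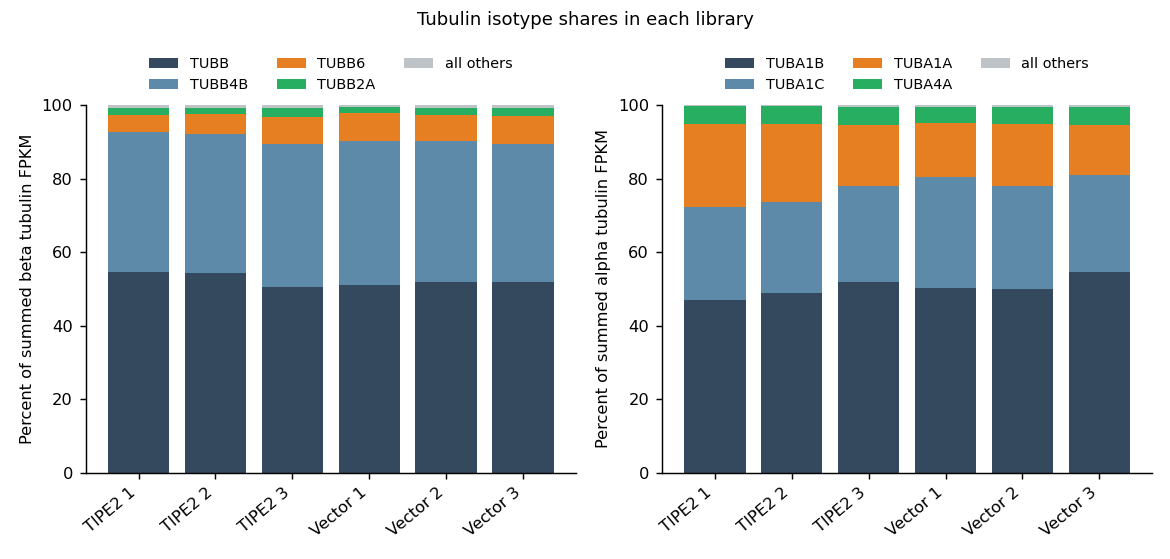
Percent of the summed FPKM (vertical axis, 0 to 100) held by each isotype in each of the 6 libraries, for 9 beta tubulin genes and 9 alpha tubulin genes. TUBB holds 50.6 to 54.5% of the beta sum in every library, TUBB6 is thinnest in TIPE2 1 and 2 at 4.75 and 5.30%, and TUBA1A holds 13.8 to 22.6% of the alpha sum.

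Pseudogenes of tubulins can take fragments of the genes they resemble. Of 39 annotated rows of tubulin and stathmin pseudogenes, 3 had a mean of at least 1 FPKM: TUBBP1, TUBBP5 and TUBAP2. TUBBP5 had 1.76, 1.91 and 1.47 FPKM in TIPE2 1, 2 and 3 and 1.21, 0.897 and 0.805 FPKM in Vector 1, 2 and 3, so its groups did not overlap. Groups without overlap, in either direction, were found for 11.5% of all tested genes. The difference of TUBBP5 was 0.46 on the log2(FPKM + 1) scale, with a Benjamini-Hochberg adjusted p of 0.662 in limma. TUBBP1 had means of 4.88 and 4.47 FPKM and TUBAP2 of 0.957 and 1.32 FPKM in TIPE2 and Vector libraries, with groups that overlap.

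The other genes of the microtubule system were taken from 9 lists with 133 genes, 108 of them tested. None passed in limma at a Benjamini-Hochberg adjusted p under 0.05, and 2 of the 108 had an unadjusted p under 0.05, where 5.99% of all tested genes did. The difference, TIPE2 minus Vector, was positive for 47 and negative for 61, with a median of -0.04 on the log2(FPKM + 1) scale. Over all tested genes 48.9% were positive and the median was -0.01. The lowest Benjamini-Hochberg adjusted p of these 108 genes in limma was 0.798.

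Tubulin folding genes encode the prefoldin and CCT chaperones and the cofactors that assemble the tubulin dimer. Of 22, 21 were tested, 0 passed, and 18 differences were negative, with a median of -0.14 that ranged from -0.31 without TIPE2 3 to -0.05 without TIPE2 1. PFDN2, a prefoldin subunit, had 43.7, 49.9 and 79.1 FPKM in TIPE2 and 75.4, 66.1 and 67.3 FPKM in Vector libraries. TBCB, a cofactor that acts on alpha tubulin, had 40.8 ± 7.90 and 48.9 ± 9.10 FPKM, and CCT5, a CCT subunit, had 51.8 ± 11.3 and 60.1 ± 7.59 FPKM (SD, n = 3). As for TUBB6, TIPE2 1 and 2 were the low libraries of PFDN2 and TIPE2 3 was not.

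The remaining tubulins outside the 10 genes gave 6 tested genes. TUBB4B had 439 ± 16.4 and 460.2 ± 101 FPKM, TUBA1C 135 ± 4.52 and 154 ± 32.6 FPKM and TUBAL3, a tubulin of the alpha family, 1.19 ± 0.441 and 1.94 ± 0.605 FPKM in TIPE2 and Vector libraries (SD, n = 3). TUBA4A and TUBB4A had means of 26.0 and 4.96 FPKM in TIPE2 and 24.6 and 4.28 FPKM in Vector libraries. None of the 6 passed in limma after Benjamini-Hochberg adjustment, and the median differences were -0.13 for the 4 alpha and 0.06 for the 2 beta genes. The alpha median was -0.0026 without Vector 1 and -0.21 without Vector 3. The beta median ranged from 0.01 to 0.16 without 1 library and was -0.05 with a minimum mean of 5 FPKM. Gamma tubulin and nucleation genes, which start new microtubules, gave 6 positive and 8 negative differences of 14 tested, with a median of -0.07 that was -0.02 without Vector 1. TUBG2, a gamma tubulin, had 7.89 ± 0.527 and 9.225 ± 0.765 FPKM, and the related TUBE1 and TUBD1 had differences of -0.13 and -0.13 on the log2(FPKM + 1) scale.

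Proteins that bind the microtubule lattice gave 9 positive and 7 negative differences of 16 tested, with a median of 0.02 that was 0.13 without Vector 2 and -0.02 without Vector 1. DCLK2, a doublecortin family kinase, had 3.22, 3.61 and 4.62 FPKM in TIPE2 and 2.69, 2.84 and 2.75 FPKM in Vector libraries, and its difference of 0.35 had a Benjamini-Hochberg adjusted p of 0.798 in limma. MAP9, a protein of the mitotic spindle, had 4.53, 3.76 and 3.47 FPKM in TIPE2 and 2.01, 2.80 and 3.41 FPKM in Vector libraries, and its difference of 0.41 had a Benjamini-Hochberg adjusted p of 0.806 in limma. These were the 2 genes with an unadjusted p under 0.05. MAP6, which stabilises microtubules in neurons, had means of 1.46 and 1.17 FPKM. Plus-end proteins, which track or stabilise growing ends, gave 10 positive of 14 tested with a median of 0.07, which turned to -0.02 without Vector 1. CLASP1, CLASP2 and CLIP1 of this list had differences of 0.25, 0.19 and 0.18, and Vector 1 was the lowest library for each of these genes.

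Genes for depolymerising and severing proteins, which like stathmins shorten microtubules, gave 4 positive and 6 negative differences of 10 tested, with a median of -0.06 that ranged from -0.13 without Vector 3 to -0.04 without TIPE2 3. FIGNL1 and the katanin genes KATNA1 and KATNAL1 had differences of -0.21, -0.18 and 0.19. Kinases known to phosphorylate stathmins gave 5 positive and 8 negative of 13 tested, with a median of -0.04 that was 0.04 without Vector 1, 0.01 without Vector 3 and -0.10 with a minimum mean of 5 FPKM. UHMK1, PRKACB and PAK1 had differences of 0.24, 0.18 and -0.12. Enzymes that modify tubulin gave 8 positive and 6 negative of 14 tested, with a median of 0.05 that was -0.01 with a minimum mean of 5 FPKM. Among them were the glycylase gene TTLL3 at 0.25, the tubulin carboxypeptidase gene VASH1 at 0.28 and the gene of its partner SVBP at -0.21. None of the genes in these 3 lists passed in limma after Benjamini-Hochberg adjustment.

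**Figure D5:**
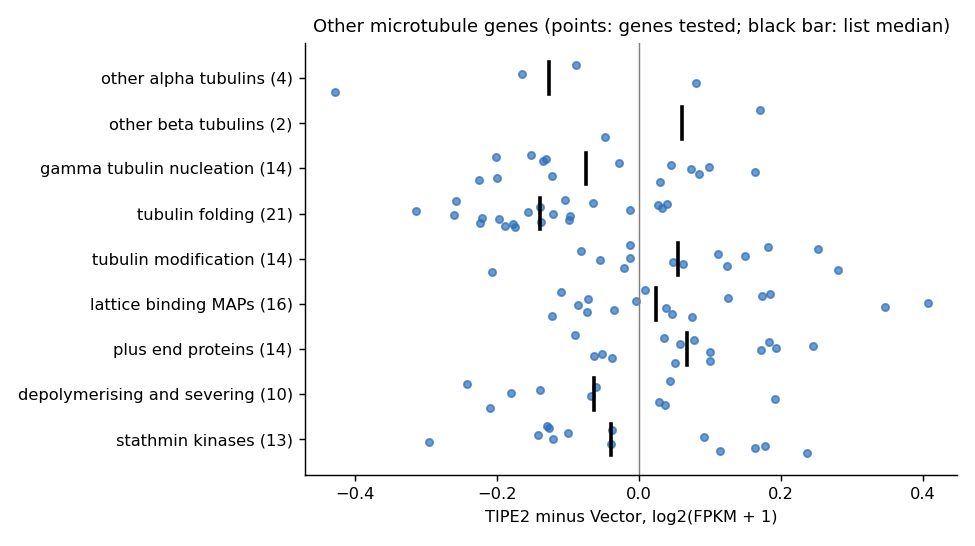
Difference on the log2(FPKM + 1) scale (horizontal axis, TIPE2 minus Vector) of 108 tested microtubule genes in 9 lists, 1 point a gene, with the median of each list as a black bar and the number tested in brackets. The medians lie between -0.14 for tubulin folding and 0.07 for plus-end proteins, and no gene lies beyond -0.43 or 0.41.

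The genes whose pattern over the 6 libraries was most like that of STMN3 were found by Pearson's r on log2(FPKM + 1) among 12537 tested genes. They were EME1 at 0.992, ZNF492 at 0.992, AC025259.3 at 0.983, RPL4P4 at 0.977 and ZNF503 at 0.971. They were picked for this likeness, the points are 6 libraries in 2 groups that share depth and scaling, and the values are descriptions only. EME1, a subunit of a DNA repair nuclease, had 5.48, 5.68 and 5.04 FPKM in TIPE2 and 6.98, 6.86 and 6.19 FPKM in Vector libraries. AC025259.3, a long intergenic RNA, had 2.28, 1.88 and 0.721 FPKM in TIPE2 and 7.33, 6.44 and 5.08 FPKM in Vector libraries. In both, as in STMN3, replicate 3 was the lowest library in each group, and the difference between the groups was far smaller for EME1 than for STMN3.

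Markers of other cell types were low beside these results. Leukocyte markers, 1 of 8 with a mean of at least 1 FPKM and CD3E at 0, summed to 1.19 to 1.48 FPKM in TIPE2 and 1.26 to 2.21 FPKM in Vector libraries. Endothelial markers, 0 of 6 at that level and CDH5 at 0, summed to 0.885 to 1.18 and 0.604 to 0.903 FPKM. Fibroblast markers, 2 of 7 at that level, summed to 1.76 to 7.98 and 2.03 to 5.11 FPKM. Among the 8 epithelial markers, the keratins KRT7 (139 to 166 FPKM in TIPE2, 241 to 384 FPKM in Vector libraries) and KRT18 (66.7 to 74.5 and 92.8 to 135 FPKM) had groups that do not overlap, with TIPE2 lower. Such groups were found for 5.31% of all tested genes. Neither keratin passed in limma, with Benjamini-Hochberg adjusted p of 0.343 for KRT7 and 0.743 for KRT18. The groups overlapped for the other 6. The means of KRT8, KRT19 and PAX8 were 203, 170.1 and 31.1 FPKM in TIPE2 and 248, 189 and 32.3 FPKM in Vector libraries. Those of EPCAM, CDH1 and ERBB2 were the higher in TIPE2, at 9.97, 1.30 and 702 FPKM against 7.06, 0.517 and 534 FPKM. The part of these markers in the STMN3 values was not tested.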

How the data were processed

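For each library the authors deposited 1 table of FPKM values for 58735 human Ensembl identifiers, per the file headers. Bowtie, CASAVA 1.7 and mm8, a mouse build, appear in the submitters' processing notes; which counter and strand setting were used is not stated in the labels or headers. All 58735 identifiers matched GENCODE 29, whose GRCh38 coordinates are used. Of the non-zero values, 100% became whole fragments (tolerance 0.01) when multiplied by merged exon length and a denominator per library. The denominators were 96.3% (Vector 1) to 103.4% (TIPE2 1) of the fragments in genes. They matched median-of-ratios size factors, which scale each library by the median ratio of its genes to their average. limma 3.58.1 in R 4.3.3 (trend and robust) was fitted to log2(FPKM + 1), pseudocount 1, for 12538 genes averaging at least 1 FPKM. Calls needed an adjusted p (Benjamini-Hochberg) under 0.05. Changes of low genes are understated on this scale. The steps were tested on simulated data. The spread of those data was set and not taken from these libraries, so changes missed here are not gauged. Fragments without molecular identifiers make limits cover counting error only.

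The members and the gene lists were chosen with earlier results of these data known. Named were all 10 members, TNFAIP8L2, up to 3 genes a list with the smallest p, the neighbours of STMN3, the 5 genes most like it and pseudogenes averaging at least 1 FPKM. The epithelial markers and GAD1 were named after their values were seen. Alternatives were a replicate block, each library left out, quantile normalization, equal FPKM sums, no filter, a minimum of 5 FPKM, a pseudocount of 0.1 and limma without trend and robust settings. The lengths of principal transcripts and of unshared bases were chosen after seeing the data.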

Additional observations from a re-analysis of the deposited data

How the results depend on the processing

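Over all genes, 2 were called higher and 1 lower in limma, with 751 at an unadjusted p under 0.05. With the replicate block, equal FPKM sums, no filter or a minimum mean of 5 FPKM, 1 was called higher and 0 lower; with a pseudocount of 0.1, 0 were called lower. Without 1 library the counts ranged from 1 to 8 higher and from 0 to 3 lower. STMN1, TUBA1A, TUBB, TUBB2A, TUBB2B and TUBB6 passed the threshold under none of the alternatives that gave them a test. The cause of these shifts was not tested.

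The labels do not say whether the numbers 1 to 3 pair the samples. Deviations from the group means correlated at -0.23, 0.15 and 0.19 between same-numbered libraries. TIPE2 1 correlated best with Vector 2 (0.33), and TIPE2 2 and 3 each correlated best with the Vector library of the same number. With 3 libraries a group, such correlations cannot decide whether the samples are paired. The replicate block changed no call of a member. The difference of TUBB turned from -0.0047 to 0.0849 with quantile normalization and 0.0242 with equal sums, and that of TUBB2A from -0.03 to 0.0287 with quantile normalization. Without 1 library the differences ranged from -0.10 to 0.18 for STMN1, -0.12 to 0.14 for TUBB, -0.16 to 0.0651 for TUBB2A and -0.15 to 0.0111 for TUBB2B. TUBA1A and TUBB6 kept their direction under every alternative run; that of STMN3 follows from its choice. TUBB2B gave no value with a minimum mean of 5 FPKM. Depth limits STMN2 and STMN4, with 2 fragments and 1 fragment in all.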
